A study of Mus musculus with 14 samples.

Results

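The immediate early genes described here are Jun, Junb, Jund, Fos, Fosb, Fosl1, Egr1, Egr2, Ier2 and Atf3, 10 genes taken by symbol from a table of 23427 genes, and their mRNA was followed across all 7 groups of an mRNA-seq experiment on mouse oligodendrocyte precursor cells (OPCs) and the oligodendrocytes (OLs) they become in culture. They were picked because Egr1 was low after growth factor withdrawal and Jun was high in cells with Secisbp2l knocked down, so levels in these comparisons are given as a description, without a test. The OPCs were wild-type C57BL/6J cells, immunopanned with an antibody against the receptor PDGFRα from the pooled cortices of 3 pups at postnatal day 7, and each group was measured in 2 replicate cultures. Day0 cells were taken before differentiation was induced, and the remaining groups were taken at Day3 after PDGF-AA had been removed and the thyroid hormone T3 added. The Day3 groups were non-treated cells, mock-transfected cells, cells with the non-targeting NC siRNA #1 or NC siRNA #2, cells with an siRNA against Secisbp2l (Sbp2l, a SECIS-binding protein) named siSbp2l, and cells with an siRNA against Pdgfra named siPdgfra. The labels describe a serum-containing medium for every sample while the methods describe a defined medium, and knockdown (KD) by siRNA leaves part of the target mRNA. Because the samples are bulk cultures, fewer cells of a type and less RNA per cell cannot be told apart.

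Immediate early genes are transcribed within minutes of a stimulus without new protein synthesis, through factors already present in the cell, and their mRNAs are short-lived. Growth factors such as PDGF act through receptor tyrosine kinases, Ras and the MAP kinases ERK, JNK and p38, which phosphorylate the ternary complex factors bound with SRF at CArG boxes, CREB and ATF factors at cyclic AMP response elements, and c-Jun itself. Jun and Fos proteins pair through leucine zippers as the AP-1 dimer, whereas Egr1 and Egr2 are zinc-finger factors held back by the corepressors Nab1 and Nab2, and Egr2 is best known in glia for the myelin program of Schwann cells.

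Promoter windows from RefSeq (GRCm38.p6, 250 bases before to 50 bases after the start) matched 7 of the 10 members, namely Atf3, Egr2, Fos, Fosb, Jun, Junb and Jund, and not Egr1, Fosl1 or Ier2. The windows of Egr2, Fos and Jun are printed, 5′ to 3′ on the strand of the gene, because these 3 genes represent different patterns of mRNA level, with Egr2 low throughout Day3, Fos abundant in every group and Jun highest in siSbp2l. They lie at chr10:67537619-67537918 on the plus strand, chr12:85473640-85473939 on the plus strand and chr4:95052173-95052472 on the minus strand. Capitals mark TGACG or its reverse complement CGTCA and the CArG box in Egr2, TGACG in Fos, and TGACATCA, the variant AP-1 site of Jun.
Egr2: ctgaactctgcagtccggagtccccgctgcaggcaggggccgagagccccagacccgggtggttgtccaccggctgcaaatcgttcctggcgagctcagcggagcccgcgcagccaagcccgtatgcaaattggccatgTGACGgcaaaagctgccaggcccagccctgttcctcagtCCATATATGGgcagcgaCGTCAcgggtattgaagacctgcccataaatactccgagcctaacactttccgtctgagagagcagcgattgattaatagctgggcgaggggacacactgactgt
Fos: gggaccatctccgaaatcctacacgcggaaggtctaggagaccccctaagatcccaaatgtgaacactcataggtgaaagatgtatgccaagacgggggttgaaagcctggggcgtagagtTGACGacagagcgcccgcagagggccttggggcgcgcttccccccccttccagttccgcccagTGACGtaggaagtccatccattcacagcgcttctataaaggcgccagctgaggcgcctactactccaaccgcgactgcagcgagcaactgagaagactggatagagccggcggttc
Jun: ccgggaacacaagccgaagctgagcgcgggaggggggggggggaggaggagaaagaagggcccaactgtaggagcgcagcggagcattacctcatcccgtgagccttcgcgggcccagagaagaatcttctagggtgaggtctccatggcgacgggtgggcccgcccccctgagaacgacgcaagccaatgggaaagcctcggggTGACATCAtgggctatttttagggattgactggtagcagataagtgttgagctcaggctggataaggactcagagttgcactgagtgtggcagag

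TGACATCA began 45 bases upstream of the Jun start and was found, on either strand, in 3.62% of the 32851 RefSeq windows of this length. Among the 7 member windows it was in that of Jun alone. TGACG, a core that the full element TGACGTCA contains, was present in 5 of the 7 member windows (Atf3, Egr2, Fos, Fosb and Junb) and in 20.8% of all windows. The CArG box of Egr2 began 72 bases upstream of its start, and 1.63% of all windows held one. TGACGTCA, the AP-1 site TGACTCA and the Egr site GCGTGGGCG were in none of the 7 windows and in 1.79%, 5.20% and 0.612% of all windows. These are letter matches only, and binding was not measured.

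Libraries held an estimated 6555959 (NC siRNA #2 replicate 2) to 31565172 (Day0 replicate 1) fragments, and 10834 to 11034 genes reached 1 FPKM (fragments corrected for exon length and library depth, so that levels of different genes can be compared). The non-treated pair stood apart, with 250 genes differing 2-fold or more between its replicates against 7 to 20 in the other groups, and the difference followed GC content across genes (Spearman rho = -0.80). This rho was -0.50 at Day0, 0.46 in NC siRNA #1 and between -0.19 and 0.05 in the remaining groups. Both knockdowns were seen in their targets. Secisbp2l lay at 3.91 and 3.82 FPKM in siSbp2l against 135 to 255 in the 8 control libraries of Day3, and Pdgfra at 3.30 and 2.69 FPKM in siPdgfra against 32.4 to 72.1. The labelled lineage showed in the OPC marker Pdgfra, at 409 and 436 FPKM at Day0, and in the myelin gene Mbp, at 6.13 and 5.09 FPKM at Day0 and at 434 to 1188 FPKM in the Day3 controls. Endothelial and fibroblast marker lists summed to at most 0.368 FPKM in every library, with 2 to 4 markers listed at 0 in each group, whereas the astrocyte marker Gfap went from 0.677 and 0.755 FPKM at Day0 to 36.8 to 79.2 FPKM in the Day3 controls.

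Fos and Jun were the most abundant members in the differentiating cells, and Egr1 was the most abundant in OPCs. Egr1, Egr2 and Ier2 shared one shape, high at Day0 and low in all 6 Day3 groups. Atf3 had the opposite shape, and Jun, Junb, Jund and Fos stayed within a few fold of their Day0 level. Fosb lay between 0.0973 and 0.549 FPKM, or 7 to 42 fragments per library, with overlapping neighbours throughout its order of groups, so no order can be read for it. Fosl1 had 1 fragment in 5 libraries and 0 in the others, below the floor of 3 fragments (0.0557 to 0.268 FPKM), and its gene model overlaps that of Ccdc85b on the other strand. Fosb and Fosl1 did not pass the filter of 1 FPKM in at least 2 libraries, and 8 members did.

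**Figure D1:**
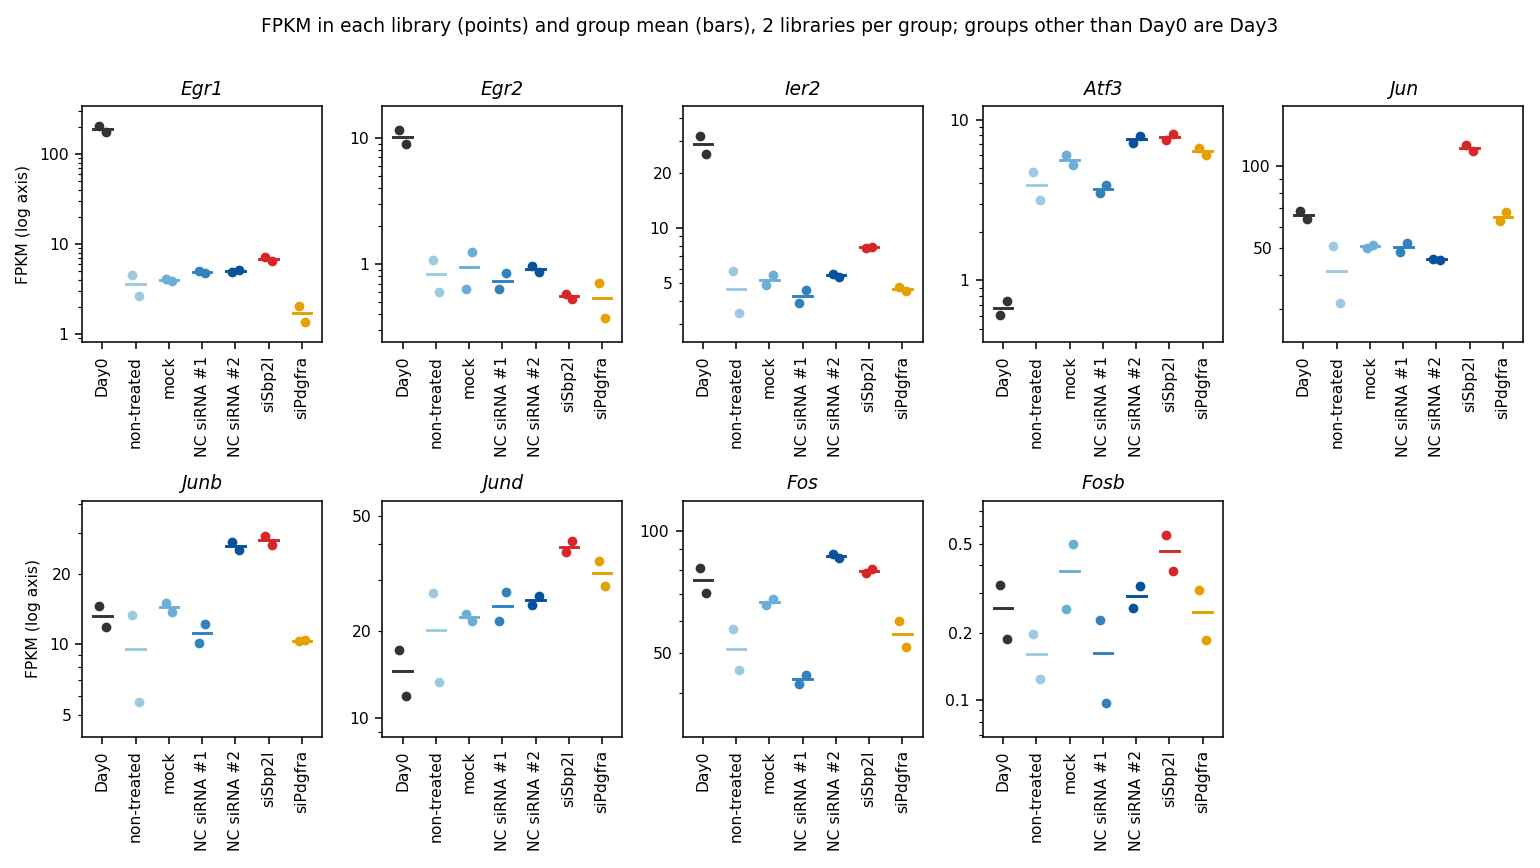
FPKM (log axis, own scale per gene) of 9 members in each of the 14 libraries, with points for libraries and bars for means of 2. Egr1, Egr2 and Ier2 sit highest at Day0 and Jun and Jund highest in siSbp2l, and Fosl1 (at most 0.038 FPKM) is not drawn.

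Growth factor withdrawal and T3 separate Day0 from Day3, and the members differed widely across this step. Egr1, the growth factor-induced zinc-finger gene, was 50-fold lower in the mean of non-treated and mock cells than at Day0. Its paralog Egr2 was 11.5-fold lower, and Ier2, a nuclear protein gene induced with them, 5.83-fold lower. Atf3, a stress-induced ATF/CREB family member, was 7.04-fold higher.

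Egr1 read 204 and 174 FPKM at Day0 (189 ± 20.6, mean ± SD, n = 2). It read 4.49 and 2.67 FPKM in non-treated, 4.10 and 3.85 in mock, 5.07 and 4.8 in NC siRNA #1 and 4.84 and 5.11 in NC siRNA #2. With siSbp2l it read 7.23 and 6.51 FPKM, and with siPdgfra 2.05 and 1.35 FPKM. Every Day3 library was thus far below both Day0 libraries, the siSbp2l libraries were above all 8 control libraries, and the siPdgfra libraries were below all 8. On the log2(FPKM + 1) scale the difference of non-treated and mock from Day0 was -5.33. In the order of groups, mock and non-treated overlapped, as did NC siRNA #1 and NC siRNA #2.

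Egr2 read 11.5 and 8.92 FPKM at Day0, 1.08 and 0.600 in non-treated and 0.632 and 1.25 in mock. It read 0.633 and 0.850 FPKM in NC siRNA #1, 0.967 and 0.874 in NC siRNA #2, 0.582 and 0.528 in siSbp2l and 0.709 and 0.371 in siPdgfra. The Day3 groups overlapped along most of the order, and behind these values stood 17 to 77 fragments per library. Ier2 read 31.9 and 25.4 FPKM at Day0, 5.80 and 3.45 in non-treated and 4.90 and 5.53 in mock. The siSbp2l libraries, at 7.81 and 7.84 FPKM, were above the 8 control libraries, which spanned 3.45 to 5.80 FPKM, and those of siPdgfra, at 4.73 and 4.54 FPKM, were among them.

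The Jun and Fos genes changed less over this step. Jun, which encodes c-Jun, read 68.7 and 63.9 FPKM at Day0, 50.9 and 31.5 in non-treated and 50.2 and 51.6 in mock, a log2 difference of -0.54. Fos, which encodes its partner c-Fos, read 80.8 and 70.3 FPKM at Day0, 57.2 and 45.3 in non-treated and 65.7 and 67.8 in mock, a log2 difference of -0.37. Both were lower in the 4 Day3 libraries than in the 2 of Day0, by less than 2-fold. Junb, a Jun paralog often opposed to c-Jun, overlapped between the days at 14.6 and 11.9 FPKM at Day0, 13.3 and 5.68 in non-treated and 15.0 and 13.8 in mock. Jund, the most constitutive Jun gene, read 17.2 and 12 FPKM at Day0, 27.2 and 13.3 in non-treated and 23.0 and 21.8 in mock and also overlapped. Jund and Junb transcripts are among the most GC-rich of expressed genes (67.1% and 62.6% GC, percentiles 99.7 and 98.4). Both were lower in replicate 2 than in replicate 1 of the non-treated pair, whose difference followed GC content. Both were also lower in replicate 2 at Day0, where the replicate difference followed GC content with a Spearman rho of -0.50. The same direction held in both pairs for Jun, Fos, Egr1, Egr2 and Ier2, of lower GC content (51.4% to 60.9%). It held for Atf3 in the non-treated pair only. The part of GC content in these differences was not tested.

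Atf3 read 0.608 and 0.742 FPKM at Day0 and between 3.15 and 8.16 FPKM in all 12 Day3 libraries, so the days did not overlap. Of the 8 members that passed the filter, 3 were at least 2-fold lower at Day3 without overlap of libraries (Egr1, Egr2 and Ier2) and 1 was higher (Atf3), beside 14.4% of all 11874 genes lower and 11.6% higher. Because the members were chosen partly on this contrast, nothing is read from these counts. The median log2 difference was -0.45 over the 8 members and -0.09 over all genes.

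Egr3, Egr4 and Nab2 were also low at Day3. Egr3 read 6.48 and 5.18 FPKM at Day0 and at most 0.323 FPKM in any Day3 library. Egr4 read 2.09 and 0.910 FPKM at Day0 and at most 0.423 FPKM later, and did not pass the filter. Nab2, the corepressor that Egr proteins induce, read 32.0 and 30.3 FPKM at Day0, 1.91 and 1.32 in non-treated and 1.38 and 1.62 in mock, a log2 difference of -3.66, whereas Nab1 read 15.9 and 15.8 FPKM at Day0, 9.55 and 14.3 in non-treated and 9.20 and 8.49 in mock. Of the 3 genes of this list past the filter, 2 were at least 2-fold lower without overlap, with a list median of -2.64. Egr3 passed only through its Day0 libraries, so the filter fixed that it would be lower at Day3, and the median is its own value. Nothing is read from this count or median.

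Among 30 other immediate early genes, 25 passed the filter, with a list median of -0.27. Of these, 7 were at least 2-fold lower at Day3 without overlap and 2 higher, beside 14.4% and 11.6% of all 11874 genes. Klf4, counted among the 7, passed the filter only through its Day0 libraries (1.60 and 1.58 FPKM), which fixed that it would be lower. The 4 of largest difference were Gadd45b, a growth arrest gene (4.07 on the log2 scale), Plk2, a Polo-like kinase (-3.40), the orphan receptor gene Nr4a1 (-2.48) and Myc (-2.02). Plk2 read 70.6 and 78.3 FPKM at Day0 and 6.06 to 6.21 in the non-treated and mock libraries. Of 10 other AP-1 and Maf subunits past the filter, 1 was higher and 0 lower by this measure, namely Maf, a large Maf factor, at 0.226 and 0.134 FPKM at Day0 and 18.2 to 25 FPKM in non-treated and mock. Maf passed the filter only through Day3 libraries. Of 23 upstream factors and kinases, 2 were higher and 1 lower, with Mapk3 (ERK1) 2.93, Rps6ka1 1.12 and Rps6ka3 -1.11 on the log2 scale. Of 4 AP-1 target genes past the filter, Plau (urokinase) differed by 2.79, the hyaluronan receptor gene Cd44 by 2.22 and Ccnd1 (cyclin D1) by -4.12. Heat shock, integrated stress response and interferon-induced genes held 1 gene each that was lower, namely Hsp90aa1 (-1.12), Asns (-1.63) and Ifit2 (-2.38), and the stress response list held 1 that was higher, Ddit3 (1.31).

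**Figure D2:**
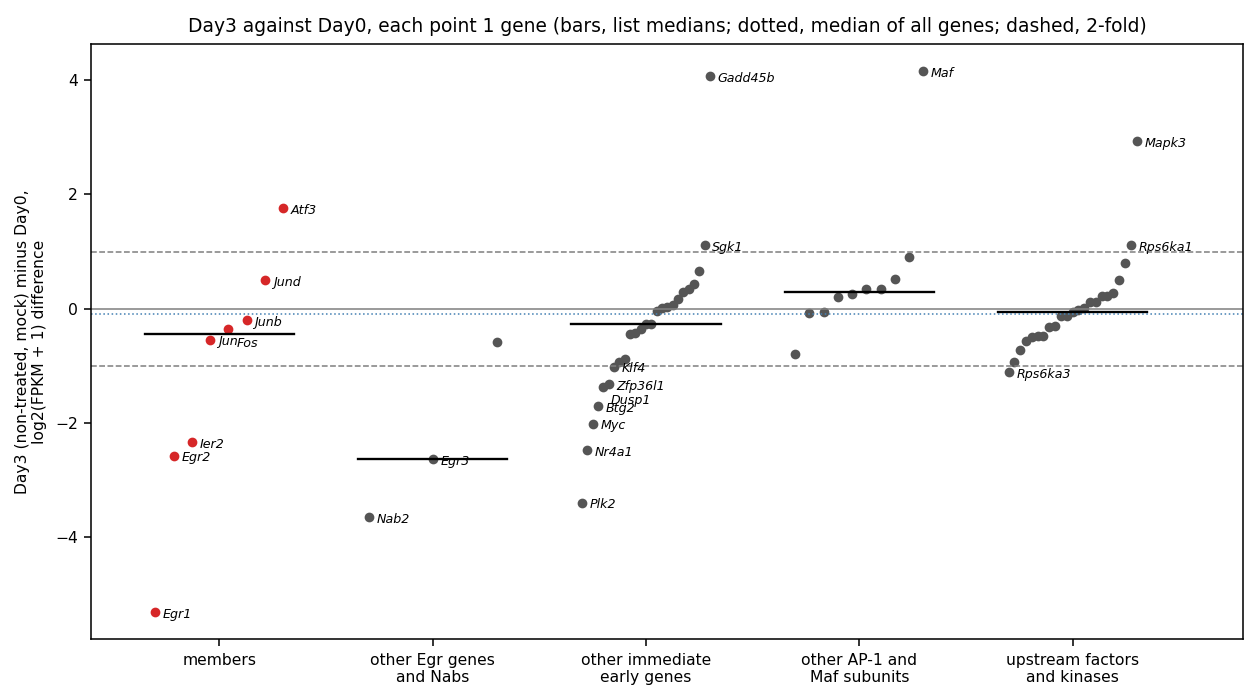
Difference of Day3 (mean of non-treated and mock) from Day0 in log2(FPKM + 1) for the members and 4 lists (other Egr genes and Nabs, other immediate early genes, other AP-1 and Maf subunits, upstream factors and kinases), with 1 point per gene past the filter, black bars for list medians and a dotted line for the median of all genes. Among the genes drawn, which leave out the AP-1 target list, Egr1 (-5.33), Nab2 (-3.66) and Plk2 (-3.40) are the lowest and Maf (4.17) and Gadd45b (4.07) the highest.

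Knockdown of Pdgfra, the receptor through which PDGF-AA maintains OPCs, gave a comparison that the choice of genes did not use, although its 4 control groups are shared with the siSbp2l comparison. Egr1 was the member that differed most. It was 2.56-fold lower in siPdgfra than the mean of the 4 control groups in FPKM, and on the log2(FPKM + 1) scale it fell by 0.98 ± 0.14 (SE, 2 against 8 libraries, adjusted p = 0.00031 with limma). Jun rose by 0.48 ± 0.14 (adjusted p = 0.0146 with limma), with 62.9 and 67.7 FPKM against 31.5 to 52.3 in the 8 control libraries. For both genes the 2 siPdgfra libraries did not overlap the controls.

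The other 6 tested members did not pass an adjusted p of 0.05 in limma. Jund differed by 0.47 ± 0.20 (adjusted p = 0.0732), with 35 and 28.8 FPKM in siPdgfra against 13.3 to 27.2 in the controls, which did not overlap. Junb, at 10.3 and 10.4 FPKM, differed by -0.40 ± 0.21 (adjusted p = 0.142), Atf3, at 6.69 and 5.98 FPKM, by 0.29 ± 0.12 (adjusted p = 0.0603) and Egr2 by -0.27 ± 0.14 (adjusted p = 0.128). These 3 overlapped the control libraries. Fos, at 59.9 and 51.7 FPKM, differed by -0.10 ± 0.09 (adjusted p = 0.392) and Ier2 by -0.05 ± 0.14 (adjusted p = 0.768), both within the control range. With a call set at 2-fold and an adjusted p under 0.05, 0 of 8 members were called, beside 4.03% of 11650 genes lower and 3.97% higher. An unadjusted p under 0.05 in limma was reached by 4 members. The share of all genes at that level was not counted, so nothing is read from this count. Without the fold threshold 1 member was lower and 1 higher, beside 23.0% and 32.4% of all genes, so the members passed no more often than genes at large. The median was -0.07 over the members and 0.09 over all genes.

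Against the controls singly, Egr1 in siPdgfra differed on the log2 scale by -0.74 from non-treated, -0.89 from mock, -1.15 from NC siRNA #1 and -1.16 from NC siRNA #2 (adjusted p = 0.00753, 0.00325, 0.000708 and 0.000664 with limma), and each SE was 0.18. It was thus called against the 2 NC siRNAs and fell short of 2-fold on this scale against the other 2 controls. Jun was higher by 0.69 than in non-treated and by 0.51 than in NC siRNA #2 (adjusted p = 0.0089 and 0.037 with limma). Its differences of 0.35 from mock and 0.37 from NC siRNA #1 did not pass (adjusted p = 0.132 and 0.111 with limma). Junb was called lower against NC siRNA #2 alone, by a difference of -1.26 ± 0.27 (adjusted p = 0.00391 with limma). No member was called against all 4 controls, beside 1.84% of genes called lower and 1.77% called higher against all 4. The Egr1 call turned on single libraries, since its difference was -1.06 without non-treated replicate 2 and -1.17 without siPdgfra replicate 1, both past the fold threshold. The adjusted p of Jun was 0.0616 and 0.12 in limma without siPdgfra replicate 1 and 2, where the lone siPdgfra library is assumed to vary like the other groups. Without the non-treated group the adjusted p in limma went under 0.05 for Junb (-0.60, adjusted p = 3.2e-05), Jund (0.39, adjusted p = 0.00315) and Fos (-0.17, adjusted p = 0.0202) as well. The share of all genes that passed an adjusted p of 0.05 in that fit was not counted, so nothing particular to the members is read from it.

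**Figure D3:**
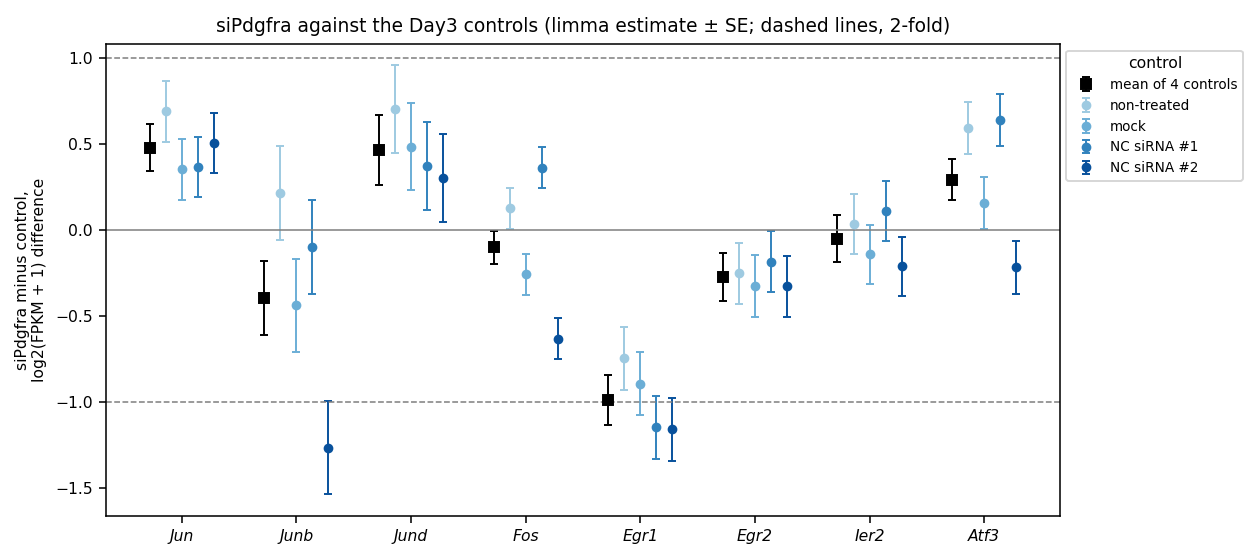
Difference of siPdgfra from the mean of the 4 controls (squares) and from each control (circles) in log2(FPKM + 1), as limma estimates with SE bars, for the 8 tested members. Egr1 is below 0 against every control and Jun above 0 against every control, while the direction for Junb, Fos, Ier2 and Atf3 depends on the control used.

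The lists around the members gave the following in siPdgfra. Of the Egr partners, Nab2 fell by 0.58 ± 0.10 (adjusted p = 0.00103 with limma) and Nab1 rose by 0.96 ± 0.12 (adjusted p = 0.00013 with limma), neither reaching 2-fold. Of 24 other immediate early genes tested, 1 was called, Zfp36l1, an mRNA decay factor gene, which fell by 1.43 ± 0.10 (adjusted p = 3.2e-06 with limma), and 7 rose and 4 fell by adjusted p alone. Of 23 upstream factors and kinases 0 were called, with 8 higher and 6 lower by adjusted p alone, and all 4 AP-1 target genes tested were higher by adjusted p, of which Plau was called (1.22 ± 0.10, adjusted p = 5.1e-06 with limma). The medians of these last 3 lists were 0.06, 0.05 and 0.59 against 0.09 over all genes. By adjusted p alone 32.4% of all 11650 genes were higher and 23.0% lower, and 3.97% were called higher and 4.03% lower.

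Stress and other cell types were examined beside them. Of 7 integrated stress response genes 3 were called higher, namely Chac1 by 2.08 ± 0.12, Asns by 1.42 ± 0.07 and Trib3 by 1.15 ± 0.11, while of 7 heat shock genes Hsph1 alone was called and fell by 1.05 ± 0.08. Astrocyte markers were lower, with 3 of 4 tested markers called and a summed level of 41.3 to 42.1 FPKM in siPdgfra against 90 to 158 in the controls. Neuron markers summed to 236 and 240 FPKM, nearly all Tubb3, against 47.8 to 276 in the controls. Of 3 tested neuron markers Syt1 was called higher, by 1.64 ± 0.07. The microglia list was nearly all P2ry12, called higher by 1.08 ± 0.17, with 3 of its 6 markers listed at 0 in siPdgfra. This list summed to 6.6 to 7.62 FPKM in siPdgfra, 0.768 to 1.84 in non-treated and 8.81 to 9.46 in NC siRNA #1. The part of stress genes and other cell types in the Egr1 and Jun differences was not tested. Under median-ratio scaling the called genes split into 361 higher and 589 lower instead of 462 and 469, and Egr1 stayed lower and Jun higher.

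The 4 control groups of Day3 differ in transfection and siRNA, and Junb, Fos and Atf3 were not level across them. Junb read 27.3 and 25.3 FPKM in NC siRNA #2 but 10.2 and 12.2 in NC siRNA #1. Fos read 87.9 and 85.5 FPKM against 42.0 and 44.1 in these 2 groups, and Atf3 7.17 and 7.87 FPKM against 3.47 and 3.93. In each gene the NC siRNA #2 libraries lay above those of NC siRNA #1 without overlap. The depth of NC siRNA #2 replicate 2 was the lowest, and its values stayed close to those of its deeper replicate.

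Over the 6 pairs of controls 2 member calls were made, both of Junb. It was higher in NC siRNA #2 than in NC siRNA #1 by 1.17 ± 0.27 (adjusted p = 0.0126 with limma), a pair in which 3.99% of all genes were called in either direction. It was also higher than in non-treated, by 1.48 ± 0.27 (adjusted p = 0.0041 with limma), a pair in which 2.61% were called. Fos differed between NC siRNA #2 and NC siRNA #1 by 0.99 ± 0.12 (adjusted p = 0.000262 with limma) and Atf3 by 0.86 ± 0.15 (adjusted p = 0.00276 with limma), both short of 2-fold on this scale. Against non-treated, NC siRNA #2 differed in Fos by 0.76 (adjusted p = 0.0019 with limma) and in Atf3 by 0.81 (adjusted p = 0.0046 with limma). Against mock, NC siRNA #1 differed in Fos by -0.62 (adjusted p = 0.00503 with limma) and in Atf3 by -0.49 (adjusted p = 0.0467 with limma). No member was called in the other 4 pairs, with 0.00858% of genes called between mock and non-treated, 3.86% between NC siRNA #1 and non-treated, 3.19% between NC siRNA #1 and mock and 2.02% between NC siRNA #2 and mock. Jun, Egr1, Egr2, Ier2 and Jund passed an adjusted p of 0.05 in none of the 6 pairs. The total of 2 calls went to 1 when NC siRNA #1 replicate 1, NC siRNA #2 replicate 1 or non-treated replicate 2 was left out and to 4 without non-treated replicate 1.

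Jun was highest of all groups in siSbp2l, the comparison that led to its choice. It read 119 and 114 FPKM (116 ± 4.06, mean ± SD, n = 2) against 31.5 to 52.3 FPKM in the 8 control libraries of Day3, which is 2.47-fold the mean of the 4 control groups and above Day0 as well. On the log2(FPKM + 1) scale it exceeded the mean of the controls by 1.3 and the single controls by 1.18 (mock), 1.19 (NC siRNA #1), 1.33 (NC siRNA #2) and 1.51 (non-treated). Every control thus gave more than 2-fold.

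Its paralog Jund read 37.6 and 40.8 FPKM against 13.3 to 27.2 in the controls, 1.69-fold their mean. Egr1 was 1.57-fold and Ier2 1.60-fold the mean of the controls. All 3 had both siSbp2l libraries above all 8 control libraries and stayed under 2-fold. Junb read 29.2 and 26.5 FPKM, 1.82-fold the mean of the controls, but NC siRNA #2 at 27.3 and 25.3 FPKM overlapped it. Atf3, at 7.44 and 8.16 FPKM, and Fos, at 78.9 and 80.5 FPKM, were above non-treated, mock and NC siRNA #1, while NC siRNA #2 overlapped Atf3 and lay above Fos. For Junb, Fos and Atf3 the answer therefore turned on which non-targeting siRNA served as the control. Egr2 was the only tested member below all controls, 0.646-fold their mean at 35 and 34 fragments per library.

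**Figure D4:**
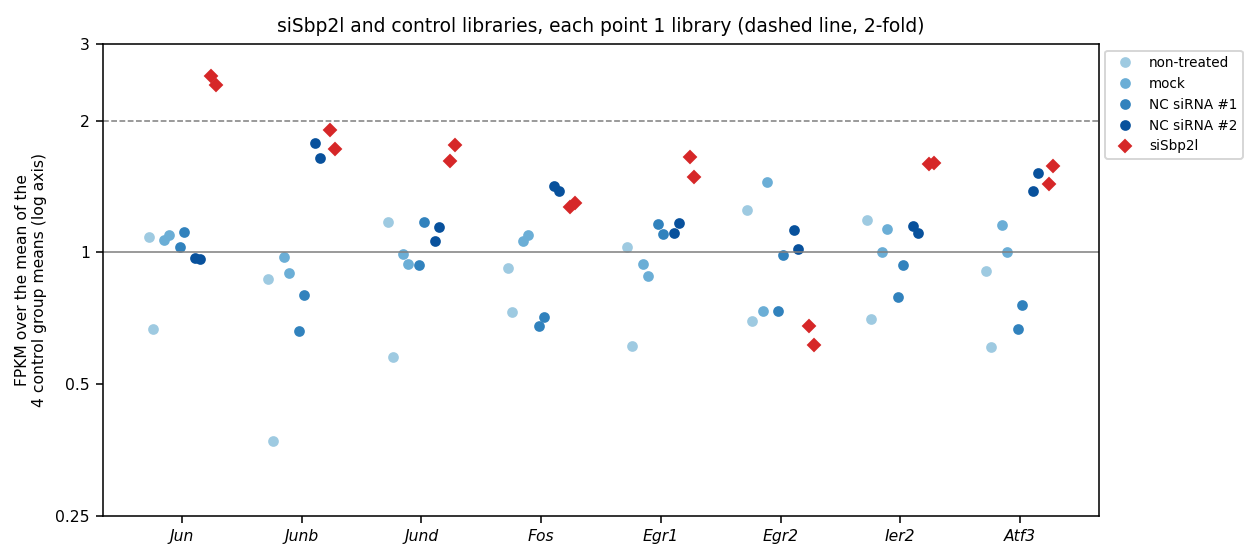
FPKM of each siSbp2l library (diamonds) and each Day3 control library (circles) over the mean of the 4 control group means (log axis), for 8 members. Jun lies above 2-fold in both siSbp2l libraries, Jund, Egr1 and Ier2 lie above every control, and the NC siRNA #2 libraries reach the siSbp2l level for Junb, Fos and Atf3.

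By the measure of 2-fold and no overlap, 1 of 8 members was higher in siSbp2l (Jun) and 0 were lower, beside 3.06% and 3.92% of 11650 genes, and since this contrast chose the members nothing is read from the counts. The median was 0.58 over the members and 0.15 over all genes. Median-ratio scaling moved the median of all genes from 0.15 to -0.002 and the split of genes from 357 higher and 457 lower to 207 and 601. Under it Jun was 1.13, Jund 0.59, Ier2 0.45 and Egr1 0.42 above the controls, and 4 members lay above all control libraries and 1 below, as without scaling. The share of all genes without overlap was not counted, so nothing is read from this count either. The summed level of the 10 oligodendrocyte lineage markers was 2532 to 2728 FPKM in siSbp2l against 5409 to 9397 in the controls, with Pdgfra at 150 and 144 FPKM against 32.4 to 72.1. How far the member levels follow the stage of the cells was not tested.

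In siSbp2l the other lists gave the following values, also without a test. Of 24 other immediate early genes 5 were at least 2-fold higher without overlap and 0 lower, beside 3.06% and 3.92% of all 11650 genes. The 4 of largest difference were Btg2, an antiproliferative gene (1.57 on the log2 scale), Ier5 (1.24), Myc (1.18) and Nr4a1 (1.13). Btg2 read 16.2 and 17.4 FPKM against 3.25 to 6.13 in the controls. Fosl2, the Fos family gene Fra-2, read 9.57 and 9.21 FPKM against 2.42 to 4.84, and Maf 6.15 and 6.05 FPKM against 12.9 to 27.4. Nab1 was lower, at 2.75 and 2.83 FPKM against 8.49 to 15.1. Among upstream kinases Rps6ka3 was higher by 1.09 and Map2k3 differed by -1.28. Of the 4 AP-1 targets past the filter only Plau was lower, at 0.653 and 0.669 FPKM against 1.43 to 9.53, although it varied widely between controls. Hbegf (0.89) and Cd44 (0.60) were above all control libraries by less than 2-fold, and Ccnd1 (0.83) was higher with overlap. The median differences were 0.29 for the other immediate early genes, 0.35 for the AP-1 and Maf subunits and 0.72 for the AP-1 targets, against 0.15 over all genes. Of the heat shock and stress response lists 0 genes differed by this measure, and Ifit2 alone (1.07) did among interferon-induced genes.

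With siSbp2l set beside siPdgfra, Jun was 0.82, Junb 1.34 and Egr1 1.55 higher in siSbp2l on the log2 scale, with no overlap of libraries. Jund differed by 0.30 and Egr2 by 0.02. Egr1 thus took the highest level of any Day3 group in siSbp2l and the lowest in siPdgfra, whereas Jun and Jund took their highest and second highest Day3 levels in these groups.

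Over the 14 libraries, the genes whose log2 values followed Jun most closely among 11871 were Ssbp3 (Pearson r = 0.969), Zfp646 (0.968), Ephb3 (0.965), Galnt10 (0.964) and Ttyh3 (0.962), all highest in siSbp2l. Ssbp3 averaged 46.5 FPKM in siSbp2l, 31.2 at Day0 and 17.1 to 26.5 in the other Day3 groups. The closest to Egr1 were Rtel1 (0.989), Atp10a (0.982), Cdc23, Nab2 and Bcl2 (0.981 each), and for them r rests mainly on the step between the 2 Day0 libraries and the rest. Among the members, r was 0.96 for Egr1 with Egr2 and 0.97 for Egr1 with Ier2, 0.81 for Fos with Junb and 0.23 for Jun with Egr1. These are descriptions over libraries that share 7 groups.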

How the data were processed

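Total RNA from 14 cultures was sequenced as stranded mRNA libraries. The authors processed reads with OmicSoft ArrayStudio on the mm10 refGene models and deposited FPKM values per gene. Counting settings were not given in the sources used here. A second deposited table holds the authors' DESeq2 comparisons (the submitters' notes name DESeq version 2), from which only gene positions and exon lengths were used. The FPKM table is named as counts but holds decimals, so a count test was not used. Depth was estimated from the steps of FPKM times exon length, and 89.4% to 92.8% of low values came out whole within 0.1 fragments. The floor of 3 fragments covers counting error only.

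Groups came from the sample labels, the non-treated columns and 1 misspelled siSbp2l column being matched by name. The 12 Day3 libraries were fitted together with limma 3.58.1 in R 4.3.3. Values were log2(FPKM + 1), the prior variance followed mean expression and moderation was robust, over 11650 genes with at least 1 FPKM in at least 2 libraries, after the code had been tested on simulated data. Fold changes on this scale understate those of low genes. A call needed 2-fold and a Benjamini-Hochberg adjusted p under 0.05 over all genes tested, two-sided. Nothing states that replicates came from separate animals, so p-values measure the spread between these cultures. Windows were searched on both strands with Python 3.11.15.

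The members and the gene lists were chosen with earlier results of these data known. Genes named beside the members were, per list, up to 4 called in siPdgfra, or at least 2-fold different where no test was made, by size, the 5 of highest Pearson r with Jun and with Egr1, and the knockdown targets. Values of Egr3, Egr4, Nab1, Nab2 and the marker genes were added after they were seen. The siPdgfra result of the AP-1 and Maf subunit list is not reported here. Alternatives were other pseudocounts, filters, scalings and sets of libraries, a replicate block and leaving out each library.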

Additional observations from a re-analysis of the deposited data

How the results depend on the processing

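The count of members called in siPdgfra against the mean of the controls was 0 and became 1, Egr1, with a pseudocount of 0.1, with median-ratio or upper-quartile scaling and without the non-treated group, became 2 without a fold threshold, and ranged from 0 to 1 when single libraries were left out. The count called against all 4 controls rose from 0 to 1 with a pseudocount of 0.1 and without a fold threshold. The 2 calls between controls became 4 with a pseudocount of 0.1, 1 with a pseudocount of 5, 1 in fits of only the groups compared and 8 without a fold threshold, and ranged from 1 to 4 when single libraries were left out. Egr1 at Day3 against Day0 was -5.63 with a pseudocount of 0.1 and -4.47 with 5. With single libraries left out, Fos in siPdgfra ran from -0.20 to 0.0053 (reversed without siPdgfra replicate 2) and Ier2 from -0.13 to 0.026 (reversed without non-treated replicate 1), with no call. Egr1 stayed lower in siPdgfra under all 24 alternatives, from -1.31 to -0.48 with an adjusted p of 3.1e-06 to 0.0101 in limma, and Jun stayed higher, from 0.37 to 0.56 with an adjusted p of 2.8e-06 to 0.12. Genes called in siPdgfra were 462 higher and 469 lower, against 722 and 805 with a pseudocount of 0.1, 170 and 212 with 5, and 3769 and 2685 without a fold threshold. Replicate differences correlated between -0.38 and 0.47 over 21 pairs of groups. In some groups they followed GC content, so whether replicate numbers pair the samples cannot be read from them. The replicate block gave 0, 0 and 2 calls and changed no call of a member. Apart from changes that follow from the scale or threshold itself, the cause was not tested. Depth limits Egr2, Fosb and Fosl1 most.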
